A study of Mus musculus with 6 samples.

Results

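The 10 genes described here make, desaturate and elongate fatty acids: *Fasn*, *Acly*, *Scd1*, *Fads1*, *Fads2*, *Elovl2*, *Elovl3*, *Elovl5*, *Elovl6* and their regulator *Srebf1*. All 10 were present among the 16623 genes of the single-cell RNA sequencing table. They were chosen as lipogenic enzymes, desaturases and elongases with genotype results of these mice already known, so every genotype difference of these 10 genes is a description and carries no p-value. The libraries come from the livers of 3 WT mice and 3 SIRT7 KO mice, the latter lacking the histone deacetylase SIRT7 in the whole body, all 5 to 6 months old. The study uses the SIRT7 KO mouse as a model of nonalcoholic steatohepatitis that needs no special diet. Each library was loaded with as many hepatocytes as nonparenchymal cells. The age is a range, and the sex, the feeding state and the hour of collection of each mouse are not given in the sources used here.

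Fatty acid synthesis in the liver starts from citrate, which ATP citrate lyase (*Acly*) splits into acetyl-CoA, and fatty acid synthase (*Fasn*) builds palmitate from acetyl-CoA and malonyl-CoA. Elongases (the *Elovl* genes) then lengthen the chain, and desaturases (*Scd1*, *Fads1*, *Fads2*) put double bonds into it. SREBP1, the product of *Srebf1*, is the transcription factor through which insulin turns this program on in hepatocytes, and the program rises with feeding and excess lipogenesis is a feature of fatty liver.

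Promoter windows were looked up because these genes are textbook targets of shared regulators. Of the 10 genes, 7 matched a promoter in the RefSeq table (GRCm38.p6), with 10 windows among 32851. *Scd1*, *Elovl3* and *Fads1* did not match. The 250 bases before each start were searched on both strands for TCACNCCAC, the letters of a sterol regulatory element, for the E-box CACGTG, for CCAAT and for the GC box GGGCGG. Over all 32851 windows these were found in 1.05%, 6.02%, 33.8% and 32.7%. The windows of *Fasn* and *Elovl2* are shown because their levels below did not overlap between the genotypes, that of *Elovl5* because it held both an E-box and CCAAT letters, and that of *Acly* for comparison with *Fasn*, which acts next to it. Each is written 5′ to 3′ on the strand of the gene, without bases that lie inside the annotated gene, with matches on either strand in capitals.
Fasn (chr11:120824548-120824797, minus strand): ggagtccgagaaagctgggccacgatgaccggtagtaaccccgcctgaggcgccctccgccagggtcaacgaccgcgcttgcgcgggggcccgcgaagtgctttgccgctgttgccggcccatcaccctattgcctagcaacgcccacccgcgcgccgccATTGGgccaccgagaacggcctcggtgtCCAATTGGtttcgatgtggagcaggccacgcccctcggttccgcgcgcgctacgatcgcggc
Acly (chr11:100528001-100528250, minus strand): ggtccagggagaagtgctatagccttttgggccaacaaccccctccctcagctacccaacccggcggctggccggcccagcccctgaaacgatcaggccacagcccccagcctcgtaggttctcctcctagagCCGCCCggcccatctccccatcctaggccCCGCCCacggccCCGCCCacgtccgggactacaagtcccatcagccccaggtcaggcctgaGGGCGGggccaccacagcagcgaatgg
Elovl2 (chr13:41220406-41220653, minus strand): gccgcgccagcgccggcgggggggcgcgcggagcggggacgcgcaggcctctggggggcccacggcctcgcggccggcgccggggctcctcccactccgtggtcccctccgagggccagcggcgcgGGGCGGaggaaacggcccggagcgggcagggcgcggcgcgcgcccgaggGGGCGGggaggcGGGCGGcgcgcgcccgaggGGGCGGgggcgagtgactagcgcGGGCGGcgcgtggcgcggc
Elovl5 (chr9:77917115-77917363, plus strand): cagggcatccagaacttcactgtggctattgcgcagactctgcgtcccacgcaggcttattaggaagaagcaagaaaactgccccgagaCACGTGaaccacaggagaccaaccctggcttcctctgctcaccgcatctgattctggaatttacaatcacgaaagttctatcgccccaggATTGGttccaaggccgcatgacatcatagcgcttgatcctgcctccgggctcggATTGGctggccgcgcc
The *Fasn* window held CCAAT letters 3 times, at 90, 62 and 59 bases before the start, and the last pair overlap each other. The *Elovl5* window held CACGTG at 161 bases and CCAAT letters at 71 and 17 bases before the start. The GC box letters occurred 4 times in the *Acly* window and 5 times in the *Elovl2* window. The sterol element letters were not in any of the 10 windows. These are matches of letters only.

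*Fasn* lies on chromosome 11 (GRCm38) from 120805846 to 120824547 on the minus strand, 180.6 kb from *Sirt7* (120618372 to 120625240). *Acly* (100476353 to 100528000) and *Srebf1* (60199089 to 60222581) lie on the same chromosome, 20090.4 and 60395.8 kb from *Sirt7*. *Fads1* and *Fads2* are neighbors on chromosome 19, which also carries *Scd1* and *Elovl3*. *Elovl2* is on chromosome 13, *Elovl5* on chromosome 9 and *Elovl6* on chromosome 3. On the opposite strand *Rai1* overlaps *Srebf1*, *Pitx3* overlaps *Elovl3* and *Gm35986* overlaps *Elovl6*, and whether reads were counted by strand is not given in the sources used here, so reads of these pairs could not be told apart if strand was ignored.

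The table holds 11610 cells, with 2511947 to 11069411 unique molecular identifiers (UMIs, each a counted RNA molecule) per mouse. Levels are given as CP10K, counts per 10000 in a cell, averaged over the cells of a mouse. Each molecule was counted at its 3′ end, so levels of different genes are compared without scaling by length. *Sirt7* was at 0.718, 0.512 and 0.546 CP10K over all cells in the WT mice and at 0.1, 0.0814 and 0.139 CP10K in the SIRT7 KO mice. Cells were grouped anew, and 2 clusters with all 12 hepatocyte markers detected were called hepatocyte-like, with 792, 514 and 101 cells in the WT mice and 916, 282 and 335 in the SIRT7 KO mice. SIRT7 KO mouse 3 stood apart. In its hepatocyte-like cells the median depth was 3291 UMIs, against 1205 to 1723.5 in the other 5 mice, 80.9% of them were in the cluster numbered 5, against 18.4% to 44.6%, and *Malat1*, a nuclear RNA, was at 269.8 CP10K, against 86.4 to 181.9. Between libraries 13 barcodes were shared. The main differences are therefore also given without this mouse.

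In hepatocyte-like cells the most abundant of the 10 genes was *Scd1*, with a mean of 22.1 CP10K over the 6 mice (SD 24.0), followed by *Fasn* at 6.87 (SD 3.91). *Scd1* was above *Fasn* in 6 of 6 mice, and *Fasn* was above the next gene, *Elovl5*, in 6 of 6 mice. *Elovl5* (3.16, SD 2.51), *Acly* (2.90, SD 1.18), *Srebf1* (2.38, SD 1.85), *Elovl2* (2.18, SD 1.77), *Fads1* (1.74, SD 1.53) and *Elovl6* (1.66, SD 2.09) followed, and each of these was above the next in only 2 to 4 of 6 mice, apart from *Elovl6*, which was above *Fads2* in 5. *Fads2* (0.459, SD 0.381) and *Elovl3* (0.0986, SD 0.0615) were the lowest. Summed over the 10 genes the level was 32.7, 24.1 and 18.1 CP10K in the WT mice and 31.9, 36.1 and 118.1 CP10K in the SIRT7 KO mice. The sums of the genotypes overlapped, and without *Scd1* they were 14.9, 13.9 and 12 against 17.5, 22.6 and 47.6 CP10K.

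*Fasn* and *Elovl2* were the 2 of 10 genes whose level was higher in every SIRT7 KO mouse than in every WT mouse. The same held for 9.75% of the 9865 genes tested in these cells. The mean of 9 of the 10 genes was higher in SIRT7 KO mice, and of 8 of 10 without SIRT7 KO mouse 3, which had the highest level of all mice for 8 of the 10. The median log2 difference of the 10 genes was 0.92, against 0.15 over all genes tested, and it was 0.25 against 0.07 without SIRT7 KO mouse 3. By limma, with p-values adjusted by Benjamini-Hochberg over every gene tested, 0.122% of genes passed the threshold of 0.05 in these cells, 2 of them higher and 10 lower in SIRT7 KO mice, and 0 of the 10 genes did. At an unadjusted p under 0.05 there were 734 genes, 3 of them among the 10, and limma's voom on summed UMIs called 0 of the 10. Nothing is read from these counts, since the 10 genes were selected on this contrast.

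**Figure D1:**
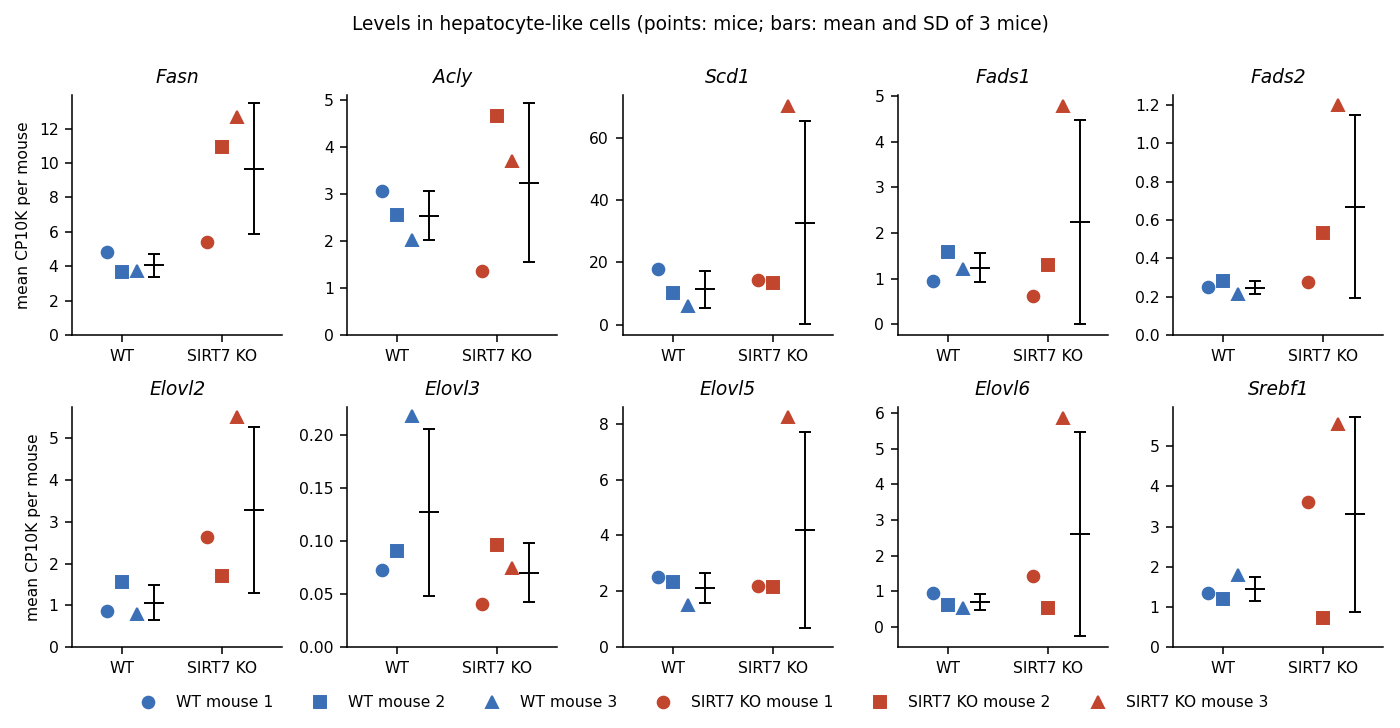
Mean level (CP10K, vertical axis) of each of the 10 genes in the hepatocyte-like cells of the 3 WT mice (blue) and the 3 SIRT7 KO mice (red). Points are mice and black bars the mean and SD of 3 mice. *Fasn* and *Elovl2* do not overlap between the genotypes, and SIRT7 KO mouse 3 (red triangle) is the highest mouse for 8 genes, with *Scd1* at 70.4 CP10K.

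Of the synthesis enzymes, *Fasn* was at 4.84, 3.66 and 3.71 CP10K in the WT mice and at 5.41, 10.9 and 12.7 CP10K in the SIRT7 KO mice. SIRT7 KO mouse 1 lay just above the highest WT mouse, and the other two were more clearly higher. The log2 difference, SIRT7 KO minus WT, was 1.16 ± 0.45 (SE, n = 3 and 3), and 0.92 ± 0.34 without SIRT7 KO mouse 3, so it did not rest on that mouse alone. *Fasn* lies 180.6 kb from *Sirt7*, and the part of this nearness in its difference was not tested. At a depth thinned to 1000 UMIs per cell, *Fasn* was detected in 39.1%, 29.6% and 22.4% of the cells of the WT mice and in 38.7%, 53.3% and 67.3% of those of the SIRT7 KO mice, and before thinning in 53.4%, 44.6% and 33.7% against 47.5%, 67.0% and 92.5%. *Acly* was at 3.06, 2.55 and 2.03 CP10K in the WT mice and at 1.37, 4.66 and 3.71 CP10K in the SIRT7 KO mice. SIRT7 KO mouse 1 was the lowest of all 6 mice and the other two the highest, and the log2 difference was 0.19 ± 0.47. It was 0.71 without SIRT7 KO mouse 1 and 0.01 without SIRT7 KO mouse 3.

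Of the desaturases, stearoyl-CoA desaturase 1 (*Scd1*), which makes oleate from stearate, was at 17.8, 10.2 and 6.11 CP10K in the WT mice and at 14.3, 13.5 and 70.4 CP10K in the SIRT7 KO mice. SIRT7 KO mice 1 and 2 lay within the WT range, and mouse 3 was far above it, with a UMI of *Scd1* in 100% of its hepatocyte-like cells. The log2 difference was 1.20 ± 0.63, and 0.42 ± 0.38 without that mouse. *Fads1*, the delta-5 desaturase of polyunsaturated fatty acids, was at 0.936, 1.58 and 1.20 CP10K in the WT mice and at 0.614, 1.30 and 4.79 CP10K in the SIRT7 KO mice. The lowest and the highest mouse were both SIRT7 KO mice. The log2 difference of 0.37 ± 0.57 turned to -0.42 ± 0.40 without SIRT7 KO mouse 3. *Fads2*, the delta-6 desaturase that acts before it, was at 0.250, 0.282 and 0.212 CP10K in the WT mice and at 0.276, 0.533 and 1.20 CP10K in the SIRT7 KO mice. Only SIRT7 KO mouse 1 lay within the WT range. The log2 difference was 1.06 ± 0.46, and 0.56 ± 0.41 without SIRT7 KO mouse 3. The low level of *Fads2* rested on 3 to 156 UMIs per mouse. Reads of the paralogs *Scd2* and *Fads3* were few in these cells, at most 0.193 and 0.0436 CP10K, and *Scd4* was listed at 0.

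Of the elongases, *Elovl2*, which lengthens C20 and C22 polyunsaturated chains, was at 0.856, 1.55 and 0.799 CP10K in the WT mice and at 2.64, 1.70 and 5.52 CP10K in the SIRT7 KO mice. The groups did not overlap, with SIRT7 KO mouse 2 close to WT mouse 2. The log2 difference was 1.47 ± 0.46, and 1.02 ± 0.38 without SIRT7 KO mouse 3. *Elovl5*, which acts on C18 and C20 polyunsaturated chains, was at 2.52, 2.34 and 1.5 CP10K in the WT mice and at 2.17, 2.16 and 8.23 CP10K in the SIRT7 KO mice. Mouse 3 of the SIRT7 KO group was high and the other two lay within the WT range. The log2 difference of 0.70 ± 0.51 was 0.06 ± 0.33 without that mouse. *Elovl6*, which lengthens palmitate to stearate, was at 0.967, 0.628 and 0.542 CP10K in the WT mice and at 1.42, 0.525 and 5.87 CP10K in the SIRT7 KO mice. SIRT7 KO mouse 2 was the lowest of all mice. The log2 difference was 1.20 ± 0.62, and it was 0.31 without SIRT7 KO mouse 3 and 1.99 without SIRT7 KO mouse 2. *Elovl3*, an elongase of saturated and monounsaturated chains, was the only gene of the 10 with a lower mean in SIRT7 KO mice (0.0703 against 0.127 CP10K). It rested on 45 UMIs in all, its groups overlapped, and the log2 difference was -0.50 ± 0.48.

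*Srebf1*, the regulator, was at 1.36, 1.20 and 1.79 CP10K in the WT mice and at 3.61, 0.738 and 5.56 CP10K in the SIRT7 KO mice. Mice 1 and 3 of the SIRT7 KO group were above the WT range and mouse 2 below it. The log2 difference was 0.78 ± 0.58, 0.20 ± 0.54 without SIRT7 KO mouse 3 and 1.62 without SIRT7 KO mouse 2. The order of the mice differed from that of *Fasn*, since SIRT7 KO mouse 2 had the lowest *Srebf1* of all 6 mice and a *Fasn* level of 10.9 CP10K.

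**Figure D2:**
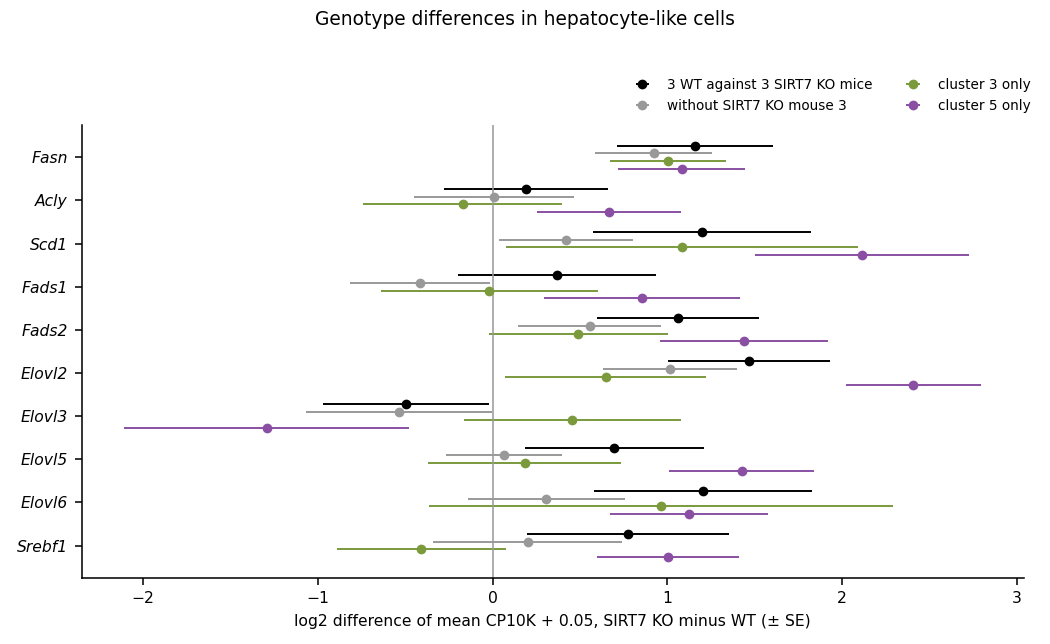
Log2 difference in level (horizontal axis, SIRT7 KO minus WT, on mean CP10K + 0.05) of each gene in hepatocyte-like cells, with bars of 1 SE, for all 6 mice (black), without SIRT7 KO mouse 3 (gray), and in the cells of cluster 3 (green) and cluster 5 (purple). *Fasn* is near 1 in each of the 4 sets, while *Elovl2* is 0.65 in cluster 3 and 2.41 in cluster 5.

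Other values were also compared between the genotypes in these cells, and every summed level below overlapped. All 12 hepatocyte markers had a lower mean in SIRT7 KO mice, and their summed level was 226.6 to 461.1 CP10K in WT mice and 116.8 to 261.9 CP10K in SIRT7 KO mice. Of the macrophage markers 7 of 8 had a higher mean in SIRT7 KO mice, with a summed level of 0.518 to 2.44 CP10K in WT mice and 0.830 to 4.41 CP10K in SIRT7 KO mice, and of the neutrophil markers 5 of 6, with 0.129 to 1.54 against 0.189 to 7.43 CP10K. No marker of these 2 immune lists was at 0 in every mouse. The other marker lists went both ways, from 0 of 4 basophil and 1 of 8 endothelial markers with a higher mean to 5 of 6 stellate markers. The lipogenic program is known to fall with fasting and to vary over the day. Of 8 fasting genes, 5 had a higher mean in SIRT7 KO mice, with summed levels of 49.6 to 86.1 CP10K in WT mice and 53.2 to 80.3 CP10K in SIRT7 KO mice, and of 13 clock genes 9 did, with 2.02 to 4.49 against 2.63 to 5.05 CP10K. The part of these values in the differences above was not tested.

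The hepatocyte-like cells fell into 2 clusters. Cluster 3 (1751 cells, median 1243 UMIs) was led by *Mup17*, *Sult2a5* and *Cyp2c50*, and cluster 5 (1189 cells, median 2245 UMIs) by *Slc22a30*, *Gm12909* and *Mlxipl*. The clusters were made from variable genes of these same cells, with the 10 genes left out. Differences between them are a description, and the split by cluster was chosen after the data were seen. In cluster 5 the levels of 5 of the 10 genes were higher in every SIRT7 KO mouse than in every WT mouse, *Fasn*, *Scd1*, *Fads2*, *Elovl2* and *Elovl5*, against 12.9% of the 10272 genes that reached a mean of 0.05 CP10K there. In cluster 3 this held for 0 of the 10, against 7.59% of 8606 genes.

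*Elovl2* is described first, as one of the genes that did not overlap in all hepatocyte-like cells. In cluster 5 it was at 0.902, 1.37 and 0.559 CP10K in the WT mice and at 4.80, 4.40 and 5.65 CP10K in the SIRT7 KO mice. The 3 SIRT7 KO mice were close to each other and well above the WT mice, SIRT7 KO mouse 2 included. In cluster 3 *Elovl2* was at 0.826, 1.60 and 0.992 CP10K in the WT mice and at 0.967, 1.09 and 4.93 CP10K in the SIRT7 KO mice, where only mouse 3 was above the WT range. The log2 difference was 2.41 ± 0.39 in cluster 5 and 0.65 ± 0.57 in cluster 3. Without SIRT7 KO mouse 3 the ratio of the group means was 4.88 in cluster 5 and 0.903 in cluster 3. Cluster 5 held 45 cells of WT mouse 3 and 52 of SIRT7 KO mouse 2, the fewest of any mouse.

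*Scd1* in cluster 5 was at 9.31, 4.32 and 3.16 CP10K in the WT mice and at 12.1, 14.0 and 62.4 CP10K in the SIRT7 KO mice. In cluster 3 it was at 23.6, 11.6 and 8.49 CP10K in the WT mice and at 16.0, 13.3 and 104.7 CP10K in the SIRT7 KO mice. Every SIRT7 KO mouse was thus above the WT mice in cluster 5 only, and the log2 difference was 2.12 ± 0.61 there and 1.08 ± 1.01 in cluster 3. *Elovl5* in cluster 5 was at 2.31, 1.27 and 1.56 CP10K against 3.39, 3.19 and 8.71 CP10K, and *Fads2* at 0.277, 0.258 and 0.251 CP10K against 0.444, 0.817 and 1.36 CP10K. *Fads2* rested there on 23, 7 and 1 UMIs in the WT mice and on 30, 5 and 147 in the SIRT7 KO mice. *Fasn* in cluster 5 was at 4.54, 5.05 and 4.57 CP10K against 7.07, 10.6 and 13.5 CP10K, and its log2 difference was similar in both clusters, 1.08 ± 0.36 and 1.003 ± 0.33.

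*Srebf1* differed in level between the clusters, and its genotypes overlapped in both. It was at 2.17 to 7.74 CP10K in cluster 5 and at 0.258 to 0.937 CP10K in cluster 3, with no overlap over the 6 mice. In cluster 5 it was at 2.17, 2.25 and 3.66 CP10K in the WT mice and at 7.74, 2.86 and 6.69 CP10K in the SIRT7 KO mice, which overlap. In cluster 3 it was at 0.801, 0.937 and 0.287 CP10K against 0.419, 0.258 and 0.790 CP10K, and the log2 difference turned to -0.41 ± 0.48. *Elovl6*, whose genotypes also overlapped in both clusters, was at 1.10 to 6.26 CP10K in cluster 5 and at 0.0969 to 4.23 CP10K in cluster 3. *Acly* was at 2.54, 1.69 and 0.920 CP10K in the WT mice of cluster 5 and at 1.89, 2.36 and 3.70 CP10K in the SIRT7 KO mice, and the groups of *Acly* and *Fads1* overlapped in both clusters. In cluster 3 the log2 difference of *Acly* turned to -0.17 ± 0.57, that of *Fads1* to -0.02 ± 0.62 and that of *Elovl3* to 0.46 ± 0.62. Over the 10 genes the median log2 difference was 1.10 in cluster 5, against 0.20 over all its genes, and 0.47 in cluster 3, against -0.11.

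**Figure D3:**
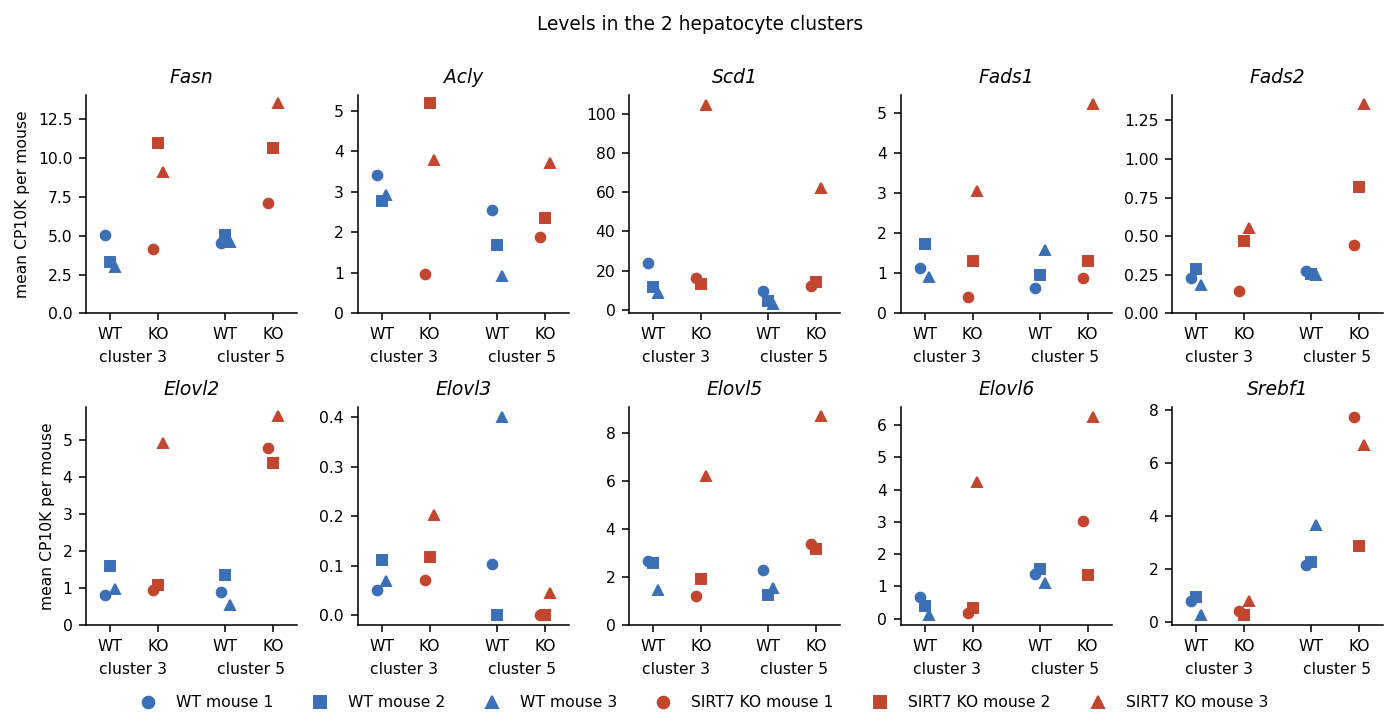
Mean level (CP10K, vertical axis) of each gene in the hepatocyte clusters 3 and 5 of the 3 WT mice (blue) and 3 SIRT7 KO mice (red), a point per mouse. *Elovl2* in cluster 5 lies between 4.40 and 5.65 CP10K in the SIRT7 KO mice and between 0.559 and 1.37 CP10K in the WT mice, and *Srebf1* is higher in cluster 5 than in cluster 3 in each mouse.

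Hepatocytes differ along the lobule from the central vein to the portal tract, and lipogenesis and fatty acid oxidation are known to be divided along that axis. To place the 10 genes on it, the hepatocyte-like cells of each mouse were ordered by a score of 8 pericentral and 8 periportal landmark genes, none of them among the 10, and cut into pericentral, middle and periportal parts of equal size. The parts are ranges of a score, and 708 of 2940 cells (24.1%) lay within 0.1 of a cut. Between the outer parts, *Glul* was lower by 3.95 and *Sds* higher by 4.17 on the log2 scale in the periportal part, which follows from the choice of landmarks.

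No gene differed between the outer parts past the threshold (limma, adjusted over 9799 genes, 0%), with 404 genes at an unadjusted p under 0.05 and 64 called by voom. The 10 genes were tested here, since zone was not used to choose them. *Fasn* was higher in the periportal than in the pericentral part in 6 of 6 mice, with a log2 difference of 0.26 ± 0.18 (adjusted p = 0.955). *Elovl3* was lower in the periportal part in 6 of 6 mice, by -1.36 ± 0.45 on the log2 scale (adjusted p = 0.955), on 23 pericentral and 8 periportal UMIs over all mice. The same sign in 6 of 6 mice was found for 3.24% of all genes tested. *Acly* was higher in the periportal part in 5 of 6 mice (0.49 ± 0.22, adjusted p = 0.955) and *Scd1* in 1 of 6 (-0.27 ± 0.19, adjusted p = 0.955). For *Elovl5* the difference was 0.10 ± 0.20 (adjusted p = 0.957), with a 95% interval of -0.33 to 0.53. For *Elovl2* it was 0.04 ± 0.30 (adjusted p = 0.985), with an interval of -0.62 to 0.70 in log2 units, and its sign turned with 6 of 21 other settings. For *Fads2* it was 0.37 ± 0.38 and for *Elovl6* -0.32 ± 0.38 (adjusted p = 0.955 for both).

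*Fads1* was lower in the periportal part of the WT mice, by log2 differences of -0.95, -0.80 and -1.55, whereas the SIRT7 KO mice had -0.01, 0.22 and 0.40. The gradient was higher in every SIRT7 KO mouse than in every WT mouse, as it was for 7.33% of all genes, and differed by 1.30 ± 0.44 between the genotypes, given as a description. In the pericentral part *Fads1* was at 1.17, 2.27 and 1.89 CP10K in the WT mice and at 0.642, 1.24 and 4.36 CP10K in the SIRT7 KO mice. *Srebf1* was higher in the periportal part of SIRT7 KO mice 1 and 3, at 6.60 and 9.23 CP10K against 1.61 and 2.94 in the pericentral part, and lower in that of mouse 2, at 0.464 against 0.958 CP10K. In the WT mice it was at 1.64, 1.17 and 0.938 CP10K in the periportal part and at 1.27, 1.24 and 2.36 CP10K in the pericentral part. Over all mice neither gradient passed the threshold (limma, adjusted p = 0.955 for both). The share of cells of cluster 5, where *Srebf1* is higher, was 66.2% periportal against 29.4% pericentral in SIRT7 KO mouse 1, 94.6% against 66.1% in mouse 3 and 17.0% against 21.3% in mouse 2. In the WT mice it was 50.4% against 42.4%, 25.7% against 11.05% and 27.3% against 58.8%. It moved the same way as *Srebf1* in each mouse but WT mouse 2, and its part in the gradient was not tested. Over all genes, 0 of 9799 zone differences differed between the genotypes past the threshold (smallest adjusted p = 0.772).

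**Figure D4:**
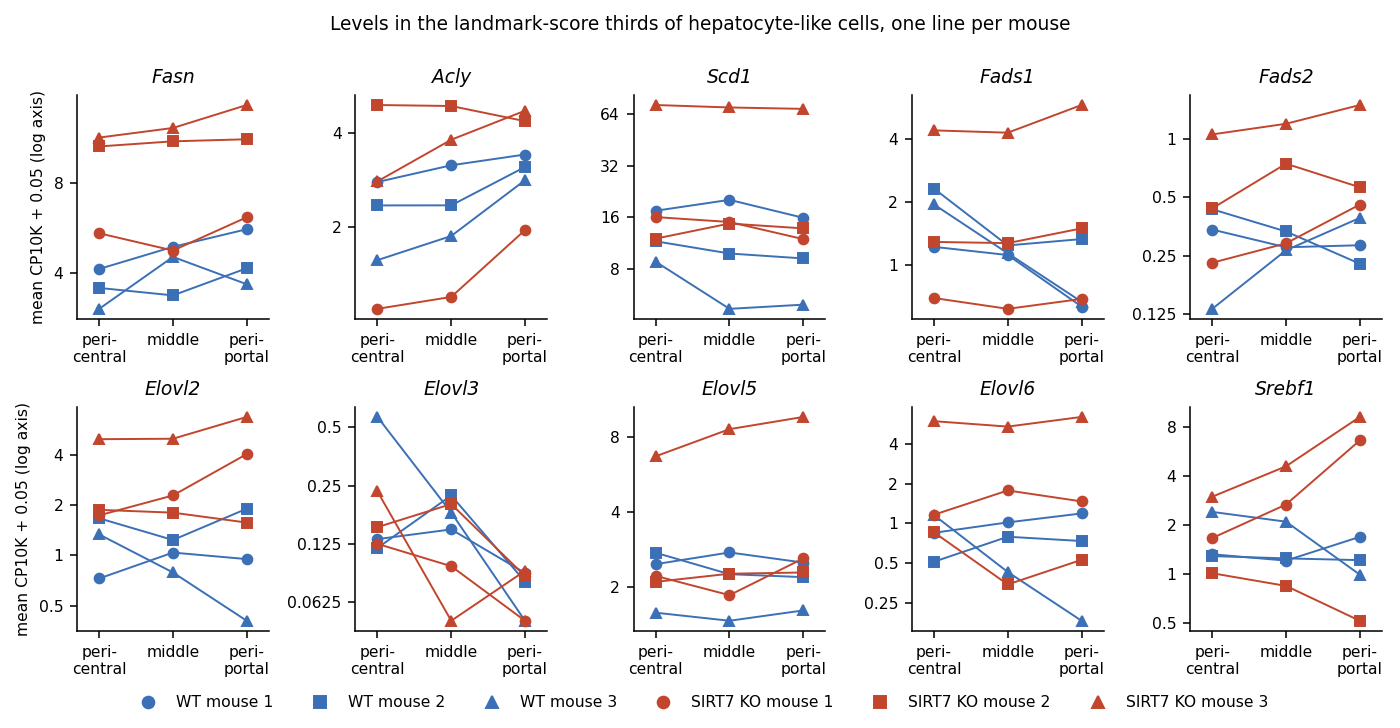
Level (mean CP10K + 0.05, vertical log axis) of each gene in the pericentral, middle and periportal parts of the hepatocyte-like cells, with a line per mouse (WT blue, SIRT7 KO red). *Fasn* ends higher at the periportal side in each of the 6 mice, *Fads1* falls in the 3 WT mice, and *Srebf1* rises in SIRT7 KO mice 1 and 3.

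Within the pericentral part, *Fasn* and *Elovl2* were again higher in every SIRT7 KO mouse than in every WT mouse, 2 of 10 genes against 8.54% of the 9651 genes tested. *Fasn* was at 4.09, 3.53 and 2.997 CP10K in the WT mice and at 5.40, 10.6 and 11.3 CP10K in the SIRT7 KO mice. Within the middle part this held for *Elovl2* alone, against 8.43% of genes. Within the periportal part it held for *Fasn* and *Fads2*, against 10.6% of genes. *Fads2* rested there on 14, 6 and 1 UMIs in the WT mice and on 20, 6 and 59 in the SIRT7 KO mice. There *Fasn* was at 5.57, 4.11 and 3.63 CP10K against 6.11, 11.2 and 14.5 CP10K, and *Elovl2* at 0.901, 1.85 and 0.356 CP10K against 3.99, 1.52 and 6.70 CP10K, with SIRT7 KO mouse 2 inside the WT range. The periportal *Elovl2* level of WT mouse 3 rested on 1 UMI. The *Fasn* difference was 1.29 ± 0.44 in the pericentral and 1.18 ± 0.57 in the periportal part. By limma, 0.124% of genes passed the threshold in the pericentral part and 0.0406% in the periportal part, and 0 of the 10 pericentral and 0 of the 9 periportal genes of the list did, *Elovl3* being too low to be tested periportally. At an unadjusted p under 0.05 there were 2 of them among 629 of 9651 genes and 3 among 703 of 9844, and voom called 0 in both.

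The 10 genes were also measured in the other cells of the liver, where RNA freed from hepatocytes is counted as well. Levels were therefore set beside those of the 12 hepatocyte markers, each as a percentage of its level in the hepatocyte-like cells of the same mouse. A gene at or below the percentages of the markers cannot be told from this background. In macrophage-like cells the median marker lay between 5.37% and 22.3% over the 6 mice. *Acly* was at 35.0% to 107% of its hepatocyte level there, above the highest marker in 6 of 6 mice, and it was above it in 5 of 6 mice in T/NK-like, 4 of 6 in dendritic-like and 5 of 5 in endothelial-like cells. *Elovl5* was above the highest marker in 6 of 6 mice in dendritic-like cells, at 34.0% to 55.4%. In macrophage-like and T/NK-like cells it was so in 3 of 6 mice each, and in endothelial-like cells in 2 of 5. *Scd1* was above the highest marker in macrophage-like cells in 5 of 6 mice, at 25.8% to 48.6%. It was so in 4 of 6 mice in T/NK-like, 2 of 6 in dendritic-like and 3 of 5 in endothelial-like cells. *Fasn*, at 5.73% to 21.1%, was above it in 0 of 6 mice in macrophage-like cells, and *Elovl3* had 0 UMIs in these cells.

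**Figure D5:**
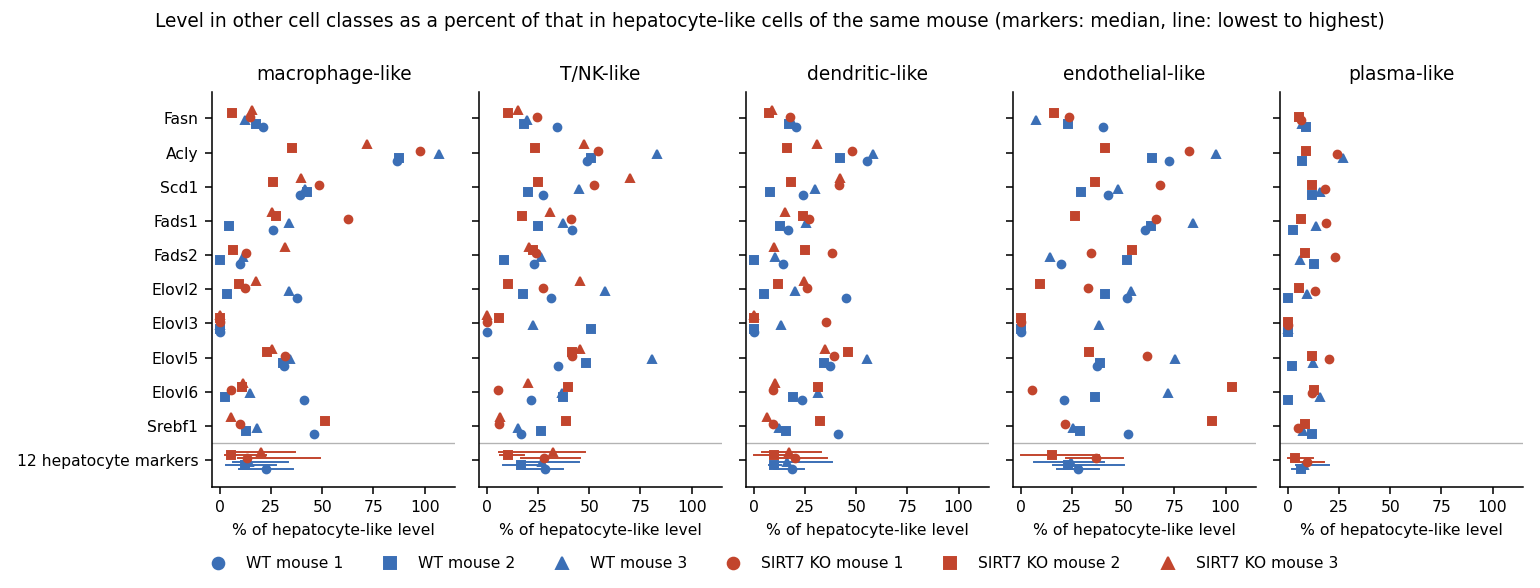
Level of each gene in 5 other cell classes as a percentage (horizontal axis) of its level in the hepatocyte-like cells of the same mouse, a point per mouse (WT blue, SIRT7 KO red). The bottom line gives the 12 hepatocyte markers, as their median (point) and their range (line). *Acly* in macrophage-like cells lies above the markers in each of the 6 mice, and *Fasn* lies among them.

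*Acly* was lower on average in the macrophage-like cells of SIRT7 KO mice, at 1.34, 1.63 and 2.67 CP10K against 2.65, 2.22 and 2.17 CP10K in the WT mice. The groups overlapped through SIRT7 KO mouse 3, and the log2 difference was -0.37 ± 0.25. In dendritic-like cells *Acly* was at 1.70, 1.07 and 1.19 CP10K in the WT mice and at 0.657, 0.759 and 1.14 CP10K in the SIRT7 KO mice, and in T/NK-like cells at 1.49, 1.30 and 1.69 against 0.743, 1.09 and 1.76 CP10K. In each of these 3 classes SIRT7 KO mouse 1 was the lowest of all mice, as it was in hepatocyte-like cells. *Scd1* was at 49.1 CP10K in the 31 T/NK-like cells of SIRT7 KO mouse 3, against 2.02 to 7.46 in the other mice, and at 27.7 and 29.7 CP10K in its macrophage-like and dendritic-like cells. That was 69.7% of its hepatocyte level in the T/NK-like cells of that mouse, where the 12 hepatocyte markers were at 5.79% to 48.1%. After thinning to 1000 UMIs per cell, 96.8% of these T/NK-like cells had a UMI of *Scd1*, against 16.1% to 44.7% in the T/NK-like cells of the other mice, and 99.4% of the hepatocyte-like cells of the same mouse did. Before thinning the shares were 100%, 29.0% to 71.9% and 100%, at median depths of 3241, 1077 to 2694 and 3291 UMIs.

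Of the 10 genes, *Fads2* alone was higher in every SIRT7 KO mouse than in every WT mouse in macrophage-like, T/NK-like and dendritic-like cells, against 7.11%, 5.14% and 4.06% of all genes tested there. It had 0 to 3 UMIs per WT mouse in these classes. Relative to its hepatocyte level it was above the highest hepatocyte marker in 0, 1 and 2 of 6 mice and at or below the median marker in 4, 5 and 4, so its level there cannot be told from RNA of hepatocytes, in which its mean was also higher in SIRT7 KO mice. In endothelial-like cells, where SIRT7 KO mouse 3 had too few cells, 0 of the 10 genes were, against 9.5% of genes. *Fads1* was lower there in both SIRT7 KO mice (0.404 and 0.341 CP10K) than in the 3 WT mice (0.569, 1.01 and 1.01 CP10K), as were 12.8% of genes. It rested on 11, 17 and 11 UMIs in the WT mice and on 8 and 3 in the SIRT7 KO mice. Relative to its hepatocyte level it was above the highest hepatocyte marker in 4 of 5 mice. In SIRT7 KO mouse 2 it was not, at 26.3% against 38.4%. In plasma-like cells, with 2 mice per genotype, 5 of 10 genes were higher in every SIRT7 KO mouse than in every WT mouse, against 25.8% of genes. The highest of them was *Scd1*, at 1.19 and 0.960 CP10K in the WT mice and at 2.59 and 1.60 CP10K in the SIRT7 KO mice. *Scd1* was there at 11.7% to 18.1% of its hepatocyte level. It was above the highest hepatocyte marker in 2 of 4 mice, as was *Fads2*. *Elovl5* was above that marker in 1 of 4 mice, and *Fasn* and *Elovl2* in 0, so these levels are not clearly apart from RNA of hepatocytes. By limma the share of genes past the threshold was 0.201% in macrophage-like, 0.14% in T/NK-like, 0.0412% in dendritic-like, 0.225% in endothelial-like and 0.0781% in plasma-like cells, and 0 of the 8 or 9 genes of the list tested in each were among them. At an unadjusted p under 0.05 there were 1 of them among 1042 of 9942 genes, 0 among 708 of 10010, 3 among 580 of 9714, 1 among 779 of 10658 and 3 among 515 of 7682, and voom called 0 of them in each class. In neutrophil-like and B-like cells only 3 mice had enough cells, and *Scd1* was at 10.4 CP10K in the neutrophil-like cells of WT mouse 1 and at 5.99 and 1.60 CP10K in those of SIRT7 KO mice 1 and 2. In B-like cells it was at 12.7 and 7.76 CP10K in WT mice 1 and 3 and at 9.62 CP10K in SIRT7 KO mouse 1.

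The other genes of the pathway, taken from lists by role, were tested in the same fit. In hepatocyte-like cells 0 of 9 genes of substrate supply, 0 of 6 of the other elongases and elongation partners, 0 of 4 of the other desaturases and their electron donors, 0 of 18 regulators and 0 of 10 genes of activation and esterification passed the threshold by limma. At an unadjusted p under 0.05 there were 3, 1, 0, 1 and 1 of them, and voom called 0 of each list. Their median log2 differences were 0.63, -0.17, 0.11, 0.28 and -0.03, against 0.15 over all genes. *Elovl4* and *Scd3* were not among the genes of the table.

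Of the genes that supply acetyl-CoA and NADPH, malic enzyme (*Me1*) was at 2.10, 2.53 and 1.69 CP10K in the WT mice and at 2.48, 9.96 and 5.28 CP10K in the SIRT7 KO mice. SIRT7 KO mouse 1 lay within the WT range and the other two above it, with a log2 difference of 1.27 ± 0.49 (limma, adjusted p = 0.615). Isocitrate dehydrogenase (*Idh1*) differed by -0.45 ± 0.46 (adjusted p = 0.907) and acetyl-CoA synthetase (*Acss2*) by 0.08 ± 0.58 (adjusted p = 0.990). *Acaca* and *Acacb*, of the same list but lower in level, differed by 1.41 ± 0.52 and 1.71 ± 0.60 (limma, adjusted p = 0.596 and 0.561). Their genotypes overlapped, and SIRT7 KO mouse 3 was the highest mouse for both. Of the 9 genes tested of this list, 7 had a difference above 0. *Tecr*, *Hacd3* and *Hsd17b12*, whose enzymes complete each elongation cycle, differed by -0.31 ± 0.48, -0.10 ± 0.46 and -0.24 ± 0.48 (limma, adjusted p = 0.950, 0.983 and 0.962). Each of these 3 differences was smaller than its SE. *Hacd1*, of the same list but lower in level, was at 0.567, 0.527 and 0.425 CP10K in the WT mice. In the SIRT7 KO mice it was at 0.173, 0.144 and 0.1745 CP10K. It had the smallest adjusted p of that list (-1.37 ± 0.37, limma, adjusted p = 0.3105), which did not pass the threshold. The share of all genes lower in every SIRT7 KO mouse than in every WT mouse was not counted in these cells. Cytochrome b5 (*Cyb5a*) and its reductase (*Cyb5r3*), which pass electrons to the desaturases, differed by -0.19 ± 0.54 and 0.61 ± 0.45 (limma, adjusted p = 0.976 and 0.852), and *Fads6* by 0.41 ± 0.43 (adjusted p = 0.911).

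Of the regulators, *Mlxipl*, which encodes the carbohydrate-responsive factor ChREBP, was at 5.19, 2.84 and 5.07 CP10K in the WT mice and at 9.64, 4.19 and 12.9 CP10K in the SIRT7 KO mice (0.93 ± 0.49, limma, adjusted p = 0.728). As with *Srebf1*, SIRT7 KO mice 1 and 3 were above the WT range and mouse 2 was not, and *Mlxipl* is also a leading gene of cluster 5. In cluster 3 alone its log2 difference was -0.34. *Thrsp*, a lipogenic protein that responds to thyroid hormone, was at 16.2, 4.70 and 3.46 CP10K in the WT mice and at 5.53, 8.57 and 9.79 CP10K in the SIRT7 KO mice (0.27 ± 0.55, adjusted p = 0.962), and its log2 difference was -0.85 in cluster 5 alone. *Insig1*, which holds SREBP in the endoplasmic reticulum, was at 7.36, 6.74 and 5.15 CP10K in the WT mice and at 3.26, 3.56 and 6.13 CP10K in the SIRT7 KO mice (-0.61 ± 0.43, adjusted p = 0.829). Of the genes that activate and esterify fatty acids, *Lpin2* was at 2.27, 1.28 and 2.03 CP10K in the WT mice and at 2.95, 2.87 and 3.73 CP10K in the SIRT7 KO mice, which do not overlap (0.79 ± 0.40, adjusted p = 0.712), *Acsl1* differed by -0.24 ± 0.42 (adjusted p = 0.955) and *Agpat2* by -0.18 ± 0.45 (adjusted p = 0.969).

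Finally, the levels of *Scd1*, *Fasn* and *Elovl5*, the 3 most abundant of the 10 genes, were compared with those of 3250 genes over 18 profiles, the 3 zonal parts of the 6 mice. *Scd1* was closest to *Elovl5* (Pearson r = 0.939), *Acaca* (0.904), which encodes acetyl-CoA carboxylase, and *Grn* (0.882). *Fasn* was closest to *Ly6d* (0.907), *Ifi27* (0.883) and *Fgd6* (0.864), and *Elovl5* to *Scd1* (0.939), *Acaca* (0.888) and *Slc25a44* (0.866). *Ly6d* was at 0.0972, 0.0336 and 0.137 CP10K in the WT mice and at 0.509, 1.16 and 2.60 CP10K in the SIRT7 KO mice, in the same order of genotypes as *Fasn*. *Acaca* was at 1.51, 0.763 and 0.746 CP10K against 1.79, 1.498 and 6.67 CP10K. Profiles of a mouse share its library and its depth, and SIRT7 KO mouse 3 gave 3 of the 18, so the correlations describe these profiles only. Over the 15 profiles without that mouse r was 0.763 for *Scd1* and *Elovl5*, 0.427 for *Elovl5* and *Acaca*, and 0.847 for *Fasn* and *Ly6d*.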

How the data were processed

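Per the labels and the methods of the study, livers were perfused with collagenase, 10x libraries were aligned to mm10 with Cell Ranger 6.0.0, and cells with under 500 genes or over 5% mitochondrial reads were removed. The deposited values are natural log values, ln(CP10K + 1), that the authors made by scaling each cell to 10000. UMIs were recovered from them (12961041 values, all within 0.02 of a whole number). Mice were named by the replicate number of the labels, and 0 columns of other samples were present. Members and gene lists were chosen with earlier results of these data known. Named genes were the 10 members and, of each pathway list, any past the threshold and otherwise the 3 highest in hepatocyte-like cells. *Hacd1*, *Acaca* and *Acacb* were named besides these, for their differences.

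Cells were clustered without the members (scanpy 1.11.5, 1000 variable genes, neighbors balanced over mice, leidenalg 0.10.2 at resolution 0.35), and 22 cells with over 1% hemoglobin UMIs were left out. Scrublet marked 51 cells (0.439%), too few to count as working, so no doublets were removed. Clusters were named from marker lists. The leading genes of the dendritic-like cluster included *Prss34* and *F13a1*, markers of other cells. Classes needed 20 cells in a mouse. The mouse was the replicate, and nothing beyond the labels tells whether mice shared a litter, a batch or a day. Means per mouse, as log2(CP10K + 0.05), were tested with limma 3.58.1 (R 4.3.3, trend and robust, two-sided, Benjamini-Hochberg over all genes whose mean reached 0.05 CP10K, threshold 0.05), a scale that understates changes of low genes. The test was tried on simulated data in which the spread of the genes was reduced and the planted changes were large. Its power on the real values is not known from that. Correlations of same-numbered mice were -0.177 to 0.139, not every one over 0.1, so the numbers were not taken as pairs. Alternatives were summed UMIs, voom, other pseudocounts, filters and centring, a replicate block, other cuts and leaving out each mouse. Counting error sets the precision of low levels.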

Additional observations from a re-analysis of the deposited data

Results flagged for a closer look

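The zonal difference of *Me1*, which encodes an NADPH-supplying malic enzyme, had the opposite sign in every mouse of the 2 genotypes. Periportal minus pericentral, the log2 difference averaged 0.904 in the WT mice (0.456, 0.450 and 1.81) and -0.385 in the SIRT7 KO mice (-0.846, -0.0401 and -0.269). In the pericentral part *Me1* was at 1.61, 2.08 and 0.585 CP10K in the WT mice and at 2.95, 10.3 and 6.15 CP10K in the SIRT7 KO mice. In the periportal part it was at 2.22, 2.86 and 2.17 CP10K against 1.62, 10.03 and 5.09 CP10K. The test of the difference between the genotypes gave -1.29 ± 0.48 with an adjusted p of 0.772 (limma, over all genes), so it did not pass the threshold. Opposite signs were looked for only among the members and the pathway genes named for their level. The share of all genes with such signs was not counted.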

How the results depend on the processing

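The counts of genes past the threshold depended on the processing, while 0 of the 10 genes passed it in any class with the processing as described. In hepatocyte-like cells the 12 genes became 3 with summed UMIs, 3 with no filter and 3 with cells of at least 1000 UMIs. With divisions chosen after seeing the data they became 41 in cluster 3, 25 in cluster 5 and 50 with both clusters weighted equally. In the pericentral part the 12 became 5 with voom, 6 and 21 with pseudocounts of 0.01 and 0.2, and 2 with a filter of 0.2. In the periportal part the 4 became 8 with a pseudocount of 0.2, 9 with centring on the median, 12 with cut points over all mice and 19 with parts cut within each cluster. In macrophage-like cells the 20 became 13 with a pseudocount of 0.01 and 1 with no filter. In T/NK-like cells the 14 became 9 with summed UMIs, 6 with a pseudocount of 0.01, 7 with a filter of 0.2, 8 with no filter, 8 with centring and 9 with cells of at least 1000 UMIs. In dendritic-like cells the 4 became 2 with voom and 1 with a pseudocount of 0.01. In endothelial-like cells the 24 became 5 with summed UMIs, 0 with voom, 9 with a pseudocount of 0.01, 10 with a filter of 0.2, 78 with no filter, 39 without the highest 5% of doublet scores and 7 with cells of at least 1000 UMIs. In plasma-like cells the 6 became 13 with voom, 1 and 11 with pseudocounts of 0.01 and 0.2, 79 with no filter and 11 without the highest 5% of doublet scores. For the zone difference the 0 became 64 with voom and 16 with parts cut within each cluster. The cause was not tested for any of these.

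With the replicate block, which pairs mice by number, the counts were 16 in hepatocyte-like cells, 24 pericentral, 37 periportal, 150 in macrophage-like, 4 in T/NK-like, 66 in dendritic-like and 112 in endothelial-like cells, and 3 for the zone difference. The numbers did not pair the mice, and in plasma-like cells the block was not run, since it left no residual degrees of freedom.

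Leaving out each mouse in turn gave 3 (WT mouse 3) to 31 (SIRT7 KO mouse 2) genes in hepatocyte-like cells, 5 (SIRT7 KO mouse 2) to 43 (SIRT7 KO mouse 3) pericentral, 1 (WT mouse 3) to 34 (SIRT7 KO mouse 3) periportal and 0 to 19 (WT mouse 3) for the zone difference. Without SIRT7 KO mouse 1, which gave the most cells to each of these classes, the counts were highest in macrophage-like (1 to 101), T/NK-like (4 to 139), dendritic-like (0 to 131) and endothelial-like cells (9 to 259), and without WT mouse 3 in plasma-like cells (3 to 969). In the last 2 classes this can leave a lone mouse in a genotype, assumed to vary like the others. Of the 10 genes, which were selected on this contrast, *Srebf1* was among the 33 of 9920 genes past the threshold in the periportal part without SIRT7 KO mouse 2, and *Elovl2* among the 25 of 10272 in cluster 5 and the 50 of 9940 with both clusters weighted equally. In plasma-like cells 2 of them were among the 969 of 7536 genes without WT mouse 3. Nothing is read from these.

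Some log2 differences changed sign, and the cause was not tested. In cluster 3 alone they were -0.407 for *Srebf1*, -0.172 for *Acly*, -0.0185 for *Fads1* and 0.456 for *Elovl3*, and -0.309 for *Acss2*, -0.344 for *Mlxipl*, -1.92 for *Fads6* and 0.357 for *Cyb5a*, and in cluster 5 alone -0.849 for *Thrsp*, 0.203 for *Acsl1*, 0.0604 for *Tecr* and 0.392 for *Hacd3*. *Cyb5a* was at 0.0940 with both clusters weighted equally and *Acss2* at -0.0919 with centring. That of *Acly* was -0.151 without SIRT7 KO mouse 2 and that of *Fads1* -0.416 without SIRT7 KO mouse 3. In the pericentral part *Srebf1* kept its sign in 13, *Acly* in 16, *Fads1* in 19 and *Elovl5* in 20 of 21 alternatives and *Elovl3* in 19 of 20, and in the periportal part *Acly* did in 18 of 21. Over the fits that each left out 1 mouse, the difference ran from -0.617 to 0.154 for *Agpat2* (positive without WT mouse 1), -0.849 to 0.211 for *Hsd17b12* (positive without SIRT7 KO mouse 2), -0.361 to 0.920 for *Acss2*, -0.174 to 0.934 for *Thrsp* (negative without WT mouse 3), -0.881 to 0.0804 for *Tecr* (positive without SIRT7 KO mouse 2), -0.564 to 0.356 for *Hacd3*, -0.0085 to 0.629 for *Fads6* and -0.517 to 0.421 for *Cyb5a* (both turned without SIRT7 KO mouse 3). The zone difference was 0.0929 for *Elovl6* with voom, -0.324 for *Srebf1* with cut points over all mice, and for *Elovl2* -0.157 with summed UMIs, -0.344 with cells of at least 1000 UMIs and -0.0862 with parts cut within each cluster. Over the fits without 1 mouse it ran from -0.586 to 0.211 for *Elovl6*, -0.0033 to 0.740 for *Srebf1* and -0.147 to 0.379 for *Elovl2*.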
